A study of Homo sapiens with 16 samples.

Results

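The erythroid and megakaryocyte transcription factors described here are GATA1, GATA2, TAL1, KLF1, NFE2, LMO2, LYL1, ZFPM1 and FLI1. They were chosen by gene symbol from the table of estimated counts, and all 9 were found among its 60603 genes. RNA from 2 human acute myeloid leukaemia lines, U-937 (a monocyte-like line) and SKNO-1 (bearing the RUNX1-RUNX1T1 fusion gene), was sequenced after 24 h in the solvent DMSO, in all-trans retinoic acid (ATRA) at 0.1 µM, in Corin at 0.1 µM or in both at 0.1 µM each. ATRA activates retinoic acid receptors, and Corin inhibits the CoREST complex through its demethylase LSD1 and its histone deacetylases HDAC1 and HDAC2. Each of the 8 groups holds 2 libraries, and nothing states that they came from separate cultures, so p-values measure only the spread between these libraries, which may be technical. GM-CSF, at 10 ng/mL, was added to the culture medium of SKNO-1 in every group, so line and medium cannot be told apart.

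These factors direct the differentiation of red cells, platelet-forming megakaryocytes, mast cells and the stem and progenitor cells before them. GATA factors bind DNA with the cofactor ZFPM1 (FOG1), and they join TAL1 or its close relative LYL1 through the bridging protein LMO2 in complexes that also hold LDB1 and E proteins. GATA2 is the GATA factor of progenitors and mast cells and gives way to GATA1 as erythroid or megakaryocytic cells mature. KLF1 activates globin and red cell membrane genes, NFE2 drives globin genes and platelet formation, and FLI1 favours the megakaryocyte fate. LSD1 and CoREST are known partners of the GATA and TAL1 complexes and of the repressors GFI1 and GFI1B.

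Promoters are shown for 3 of the members that the treatments moved and for which the sequence could be read. RefSeq (GRCh38.p14) gave 8 transcription starts for 6 of the 9 members, GATA1, GATA2, TAL1, KLF1, LYL1 and ZFPM1; NFE2, LMO2 and FLI1 had no entry. The 250 bases before each start were searched on both strands for GATA words, that is AGATAA and the words in which the first letter is T, the last letter is G, or both. Such a word stood before 3 of the 8 starts, against 22.3% of 35116 promoters of the same length. The retinoic acid receptor half-site, searched as AGGTCA or GGGTCA on both strands, stood before 2 of the 8 starts, those of GATA2 and LYL1, against 22.4% of promoters. Searched likewise, the E-box CANNTG (N for any base) stood before 3 of the 8 starts, against 61.8% of promoters. The RUNX word TGTGGT stood before 1 of the 8, against 11%. In the sequences below, capitals mark the half-site in GATA2 (chr3:128493202-128493451, minus strand), beginning 240 bases before start 1 as listed. Before start 2 of GATA2 (chr3:128488531-128488780) no half-site stood. In TAL1 (chr1:47232336-47232585, minus strand) capitals mark the GATA word beginning 35 bases before start 1 as listed. No GATA word stood before start 2 of TAL1 (chr1:47231716-47231965). In KLF1 (chr19:12887202-12887451, minus strand) they mark GATA words beginning 66 and 13 bases before the start. Each is written 5′ to 3′ in the direction of transcription, and the GATA words in TAL1 and KLF1 lie on the opposite strand, so the capitals there spell their reverse complements.
GATA2: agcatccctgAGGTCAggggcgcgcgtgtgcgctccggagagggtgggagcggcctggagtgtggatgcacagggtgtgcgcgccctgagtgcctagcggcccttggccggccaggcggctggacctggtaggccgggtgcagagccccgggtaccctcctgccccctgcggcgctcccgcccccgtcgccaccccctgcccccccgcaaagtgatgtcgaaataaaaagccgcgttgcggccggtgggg
TAL1: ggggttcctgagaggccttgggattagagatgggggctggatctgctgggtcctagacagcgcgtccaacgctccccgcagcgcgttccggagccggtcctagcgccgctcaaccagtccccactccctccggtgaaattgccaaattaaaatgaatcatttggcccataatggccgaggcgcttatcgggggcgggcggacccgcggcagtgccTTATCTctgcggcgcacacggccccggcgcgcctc
KLF1: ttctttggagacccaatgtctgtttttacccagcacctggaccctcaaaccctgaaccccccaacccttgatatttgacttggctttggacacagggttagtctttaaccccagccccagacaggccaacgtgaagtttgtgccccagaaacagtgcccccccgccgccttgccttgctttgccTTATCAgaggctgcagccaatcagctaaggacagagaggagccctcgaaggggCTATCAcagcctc
In LYL1 a GATA word began 27 bases before the start (chr19:13102859-13103108, minus strand), and a half-site began 43 bases before it. A match describes these letters only, since binding was not measured here.

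Per transcript length, FLI1 and LMO2 were the most abundant of the 9 factors in both lines, and GATA1 and ZFPM1 were near the bottom. The authors' TPM values (a transcript abundance scaled to length and to the library) with DMSO in SKNO-1 were 43.7 and 56.6 for LMO2, 34.2 and 37.4 for FLI1, 16.8 and 24.3 for LYL1, and 14.4 in both libraries for NFE2. Below these stood GATA2 at 9.48 and 9.13 TPM, TAL1 at 6.09 and 8.55, KLF1 at 1.35 and 1.33, GATA1 at 0.41 and 0.44, and ZFPM1 at 0.23 and 0.40. No 2 neighbours in this order overlapped between their 2 libraries, although TAL1 and GATA2, and GATA1 and ZFPM1, lay close together. In U-937 with DMSO the order of mean TPM was FLI1 (60.3), LMO2 (32.2), LYL1 (18.9), NFE2 (8.59), KLF1 (1.30), GATA2 (0.21), ZFPM1 (0.15), TAL1 (0.01) and GATA1 (listed at 0). There the libraries of GATA2 and ZFPM1 overlapped, and the other neighbours did not.

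**Figure D1:**
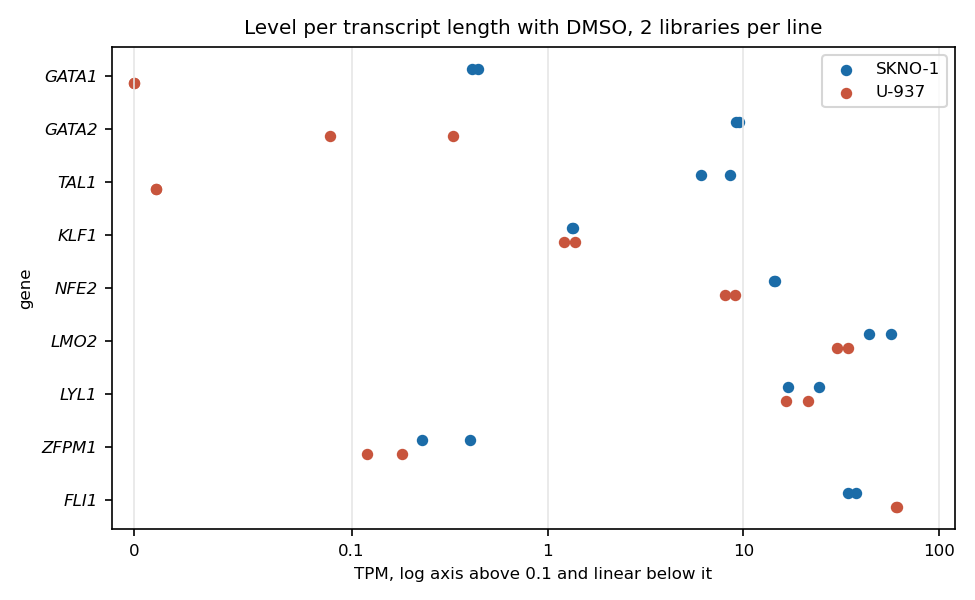
Level of each factor with DMSO as the authors' TPM (horizontal axis, logarithmic above 0.1 and linear below), 1 point per library, SKNO-1 in blue and U-937 in red. LMO2 and FLI1 lie furthest right in both lines, and GATA2 and TAL1 lie far to the left in U-937, while GATA1 lies near the left in both lines.

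Among the 9 factors, TAL1, GATA1 and GATA2 differed most between the lines. With DMSO, 6 of the 9 factors differed between the lines (edgeR's quasi-likelihood test, Benjamini-Hochberg adjusted p under 0.05, called below), against 64.8% of all 19872 genes tested, so the share called was near the background. TAL1 had 2629 counts over both SKNO-1 libraries and 3 over both U-937 libraries, a ratio of 810 (exact 95% interval for counting error, 277 to 3930, after scaling). GATA2 had 2022 counts against 29, a ratio of 64.4 (44.7 to 96.5). GATA1 had 44 counts in SKNO-1 and 0 in U-937, a ratio of 13.6 with the U-937 group set at the floor of 3 counts. That ratio leaves out the counting error of the 44 counts. NFE2 was 2.17-fold lower in U-937 (log2 difference -1.12, SE 0.14, adjusted p = 8.07e-07) and LMO2 1.99-fold lower (-0.99, SE 0.10, adjusted p = 3.39e-08). FLI1 alone among the called factors was higher in U-937, by 1.31-fold (0.39, SE 0.08, adjusted p = 0.000149). KLF1, LYL1 and ZFPM1 did not pass, with log2 differences of -0.40 (95% interval -0.998 to 0.191), -0.52 (-1.08 to 0.04) and -0.64 (-1.69 to 0.41). LYL1 passed with DESeq2 (-0.49, adjusted p = 0.0457), and with the GC trend removed, without (-0.55, adjusted p = 0.0106) or with the replicate block (-0.58, adjusted p = 0.0259). Its difference was -0.92 without SKNO-1 DMSO replicate 2 and 0.12 without SKNO-1 DMSO replicate 1.

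Library totals ran from 28414479 to 37817314 estimated counts. Levels below are given as CPM, counts scaled to the library total after TMM adjustment, which can be compared between groups but not between genes. The fusion partner RUNX1T1 averaged 108 ± 23.0 CPM (n = 2) over the SKNO-1 DMSO libraries, the DMSO libraries of U-937 held 1 count of it between them, and HOXA9 and HOXA10 had 0 counts in every SKNO-1 group. Of 6 myeloid markers (PTPRC, CD33, ANPEP, MPO, SPI1 and CEBPA), all 6 averaged at least 1 CPM in SKNO-1 and 5 did in U-937, where MPO was at 0.198 ± 0.103 CPM with DMSO. Markers of T, B, epithelial and stromal cells (12 genes) summed to 0.527 to 0.636 CPM with DMSO in SKNO-1 and 2.88 to 2.95 in U-937, and to at most 2.99 and 5.98 CPM with an agent. The B cell gene CD79A rose in SKNO-1 with Corin from 0.525 ± 0.0348 to 2.26 ± 0.626 CPM (log2 2.10, SE 0.28, adjusted p = 0.000925), and the part of such cells in the results was not tested. CD3D, CD3E, CD3G and MS4A1 were among the 9 of these markers with 0 counts in SKNO-1 with DMSO. The 2 SKNO-1 DMSO libraries stood further apart than any other pair: over 9354 genes the SD of the log2 difference between them was 0.361, against 0.108 to 0.208 in the other groups, and across genes that difference went with GC content at r = -0.796. They enter every comparison against DMSO in SKNO-1. The 8 SKNO-1 libraries share 1 estimate of spread, so this pair also bears on steps between treated groups. From Corin to both, 1822 genes were called, and 7440 with those 4 libraries fitted alone. Differences of single factors without either DMSO library are given with each factor where their calls changed. Leaving out 1 library leaves 1 in its group, and the spread then comes from the other groups. Such p-values do not measure the spread of that group, so calls gained or lost in this way are a description.

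In SKNO-1, ATRA lowered GATA2 and TAL1, Corin lowered KLF1 and LMO2 and raised GATA2, and both agents together lowered TAL1, KLF1 and LMO2 and raised NFE2. With ATRA 2 of 9 factors were called, both lower, against 6.76% of the 17479 genes tested (3.79% called lower). These ATRA counts rest on single libraries: without DMSO replicate 1, 6 factors and 29.1% of genes were called, and without DMSO replicate 2, 4 factors and 24.7%. Without ATRA replicate 1, 0 factors and 3.18% of genes were called, and without ATRA replicate 2, 1 factor and 3.07%. With Corin 3 of 9 were called, against 37.9% of genes, and with both agents 4 of 9, against 46.7%, so these shares were near the background. Without DMSO replicate 1 the Corin count was 5, against 49.3% of genes, and it was 2 without either Corin library, against 21.2% and 19.9%. The median log2 change over the 9 factors was -0.47 with ATRA, -0.18 with Corin and -0.15 with both, beside 0.01, 0.00 and 0.05 over all genes tested. Treated and DMSO libraries did not overlap for 5, 4 and 5 of the 9 factors, against 40.7%, 65% and 70% of genes. The 3 comparisons share their DMSO libraries. In bulk RNA, fewer cells of a type and less RNA per cell cannot be told apart, here and in all results that follow.

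In U-937, NFE2 rose with ATRA and further with both agents, LMO2 fell with ATRA, rose with Corin and fell with both, and LYL1, KLF1 and GATA2 fell with both agents. GATA1 and TAL1 were too low to be tested there, which left 7 factors. With ATRA 2 of 7 were called, against 41.8% of 17717 genes. With Corin 1 of 7 was called, against 12.9%, and with both agents 5 of 7, against 65.3%. The Corin count was 0 without either DMSO library (7.46% and 7.14% of genes) or Corin replicate 1 (8.97%), and the count with both agents was 2 without the first library of that group (57.9%) and 3 without DMSO replicate 2 (55.9%). The median log2 change over the 7 tested factors was -0.23, -0.10 and -0.32 in that order, beside 0.02, 0 and 0.03 over all genes. Treated and DMSO libraries did not overlap for 3, 3 and 5 of the 7 tested factors, against 72.4%, 52.3% and 81.5% of genes.

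**Figure D2:**
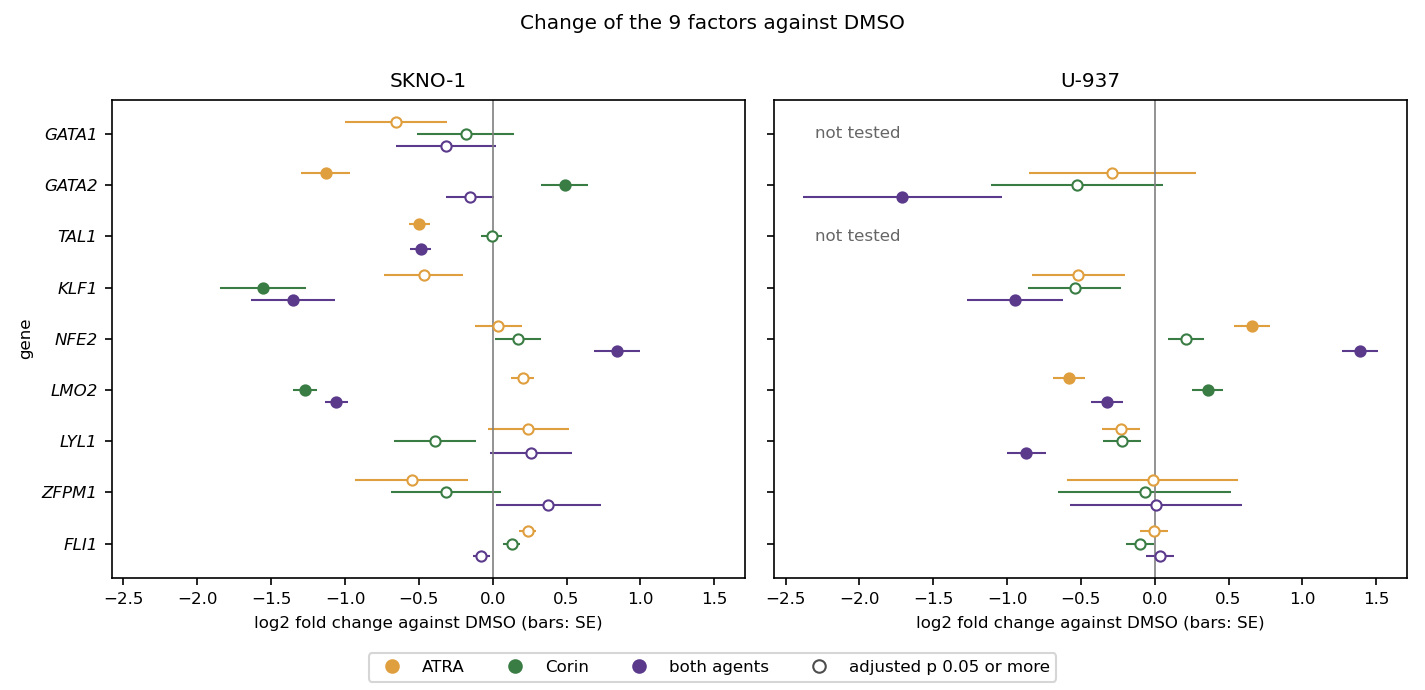
Log2 fold change against DMSO (horizontal axis) with its standard error for each factor with ATRA (orange), Corin (green) or both (purple), SKNO-1 left and U-937 right, with filled points where the adjusted p was under 0.05. LMO2 with Corin lies at -1.27 in SKNO-1 and at 0.36 in U-937, and NFE2 with both agents lies to the right of 0 in both lines.

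GATA2 (chromosome 3, 128479427-128493201, minus strand; GENCODE 44 on GRCh38) moved in opposite directions with the 2 agents in SKNO-1. Its CPM values were 33.5 and 22.7 with DMSO, 12.9 and 12.8 with ATRA, 37.8 and 41.0 with Corin, and 25.1 and 25.4 with both. The ATRA libraries were the lowest 2 and the Corin libraries the highest 2 of the 8, and the libraries with both agents lay between the 2 DMSO libraries. GATA2 fell 2.19-fold with ATRA (log2 -1.13, SE 0.17, adjusted p = 0.00495) and rose 1.40-fold with Corin (0.49, SE 0.16, adjusted p = 0.0436). With both agents it stood at a log2 difference of -0.15 from DMSO (SE 0.16, adjusted p = 0.464), 1.97-fold above ATRA alone (0.98, SE 0.17, adjusted p = 0.00218) and 1.56-fold below Corin alone (-0.64, SE 0.16, adjusted p = 0.0431). In TPM the order of the 4 group means was the same. There, however, both libraries with both agents (6.36 and 7.67) lay below both DMSO libraries (9.48 and 9.13). For the median gene, TPM per CPM was 0.333 and 0.467 in the 2 DMSO libraries and 0.302 and 0.337 with both agents. The 2 scales thus differ between these libraries.

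The fall of GATA2 with ATRA kept its size but not its call without either ATRA library (log2 -1.18, adjusted p = 0.0505 without replicate 1; -1.17, adjusted p = 0.0531 without replicate 2) or when only the 4 libraries compared were fitted (-1.14, adjusted p = 0.0823). The rise with Corin was called neither when any 1 of the 6 treated SKNO-1 libraries was left out (adjusted p = 0.0788 to 0.209), nor with the 4 libraries alone (0.49, adjusted p = 0.129), nor with the replicate number as a block (0.50, adjusted p = 0.0542), and in the authors' deposited table it had a log2 change of 0.46 with an adjusted p of 0.105. The step from Corin to both agents was likewise lost without any 1 of those 6 libraries (adjusted p = 0.0964 to 0.227) and with the block (-0.65, adjusted p = 0.0690). Against DMSO, both agents passed with the GC trend removed (-0.41, adjusted p = 0.000475), and the difference was -0.42 without DMSO replicate 2.

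GATA2-AS1, the RNA from the opposite strand of the GATA2 locus, shared its lowest and highest groups in SKNO-1 but not the order between them. It had 245 and 236 counts with DMSO, 180 and 188 with ATRA, 307 and 341 with Corin, and 267 and 257 with both agents. Here too the ATRA libraries were lowest and the Corin libraries highest, but both libraries with the 2 agents together lay above both DMSO libraries. Whether strand was used in counting is not given in the sources used here, so reads of the overlapping genes cannot be told apart with certainty. In U-937 GATA2 had 9 and 20 counts with DMSO, 15 and 12 with ATRA, 7 and 15 with Corin, and 5 and 4 with both agents. Both libraries with the 2 agents together and 1 of the 2 Corin libraries lay below both DMSO libraries, and GATA2 was called lower with both agents (log2 -1.71, SE 0.67, adjusted p = 0.0272). That call rests on 29 counts against 9, was lost with DESeq2 (-1.75, adjusted p = 0.106) and without DMSO replicate 2 (-0.97, adjusted p = 0.354) or either library with both agents (-1.76, adjusted p = 0.0798; -1.67, adjusted p = 0.0802), and the antisense gene held more counts than GATA2 in each of these groups (76 and 87 with DMSO, 31 and 25 with both). The effect of both agents on GATA2 was not called different between the lines (log2 difference -1.5, SE 0.62, adjusted p = 0.0563). It passed with DESeq2, library totals, no filter or the replicate block (adjusted p = 0.0134 to 0.0422). The difference was -1.81 without SKNO-1 DMSO replicate 1 and -2.02 without the first U-937 DMSO library. The Corin effect on GATA2 passed that test with the block and the GC trend removed (-1.30, adjusted p = 0.0442), and its difference was -1.34 without SKNO-1 DMSO replicate 1.

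GATA1 (X, 48786540-48794311, plus strand), the GATA factor of mature erythroid cells and megakaryocytes, stayed near the limit of detection. In SKNO-1 it had 24 and 20 counts with DMSO, 14 and 13 with ATRA, 18 and 19 with Corin, and 13 and 19 with both agents. The ATRA libraries lay below the DMSO libraries, but no comparison passed, and the interval of the log2 change with ATRA was -1.45 to 0.14 (estimate -0.66, adjusted p = 0.378). In U-937 it had 1 count with Corin, 1 with both agents and none in the other 6 libraries. ZFPM1 (chromosome 16, 88453280-88537031, plus strand), the FOG1 cofactor of GATA1, was as low. Its CPM in SKNO-1 was 0.694 and 0.395 with DMSO, 0.330 and 0.405 with ATRA, 0.399 and 0.470 with Corin, and 0.717 and 0.690 with both, and in U-937 every group held 23 to 26 counts. In SKNO-1 the libraries with both agents were above those of either single agent, without passing (log2 0.92 against ATRA, SE 0.37, adjusted p = 0.0761; 0.69 against Corin, SE 0.37, adjusted p = 0.236).

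TAL1 (chromosome 1, 47216290-47232225, minus strand), the basic helix-loop-helix factor of the complex, split the SKNO-1 libraries by ATRA. Its CPM was 37.0 and 35.5 with DMSO, 36.0 and 36.1 with Corin, 25.4 and 26.0 with ATRA, and 26.2 and 25.5 with both. All 4 libraries with ATRA lay between 25.4 and 26.2 CPM, and all 4 without it between 35.5 and 37.0. TAL1 fell 1.41-fold with ATRA (log2 -0.50, SE 0.07, adjusted p = 0.00461), 1.40-fold with both agents against DMSO (-0.49, SE 0.07, adjusted p = 0.00104) and 1.39-fold with both against Corin alone (-0.48, SE 0.07, adjusted p = 0.00599). With Corin its log2 difference from DMSO was -0.01 (95% interval -0.17 to 0.16), and the departure of both agents from the sum of the single effects was 0.02 (-0.22 to 0.25). The ATRA call was lost without ATRA replicate 1 (-0.52, adjusted p = 0.0503) and with the 4 libraries alone (-0.51, adjusted p = 0.0992), and the step from Corin to both without any 1 of the 4 libraries with Corin or both (adjusted p = 0.0665 to 0.0872). In TPM the DMSO libraries spread from 6.09 to 8.55 and the order was less sharp, with means of 7.32, 5.01, 7.69 and 4.33 TPM for DMSO, ATRA, Corin and both. In U-937 TAL1 had 0 to 2 counts per library.

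**Figure D3:**
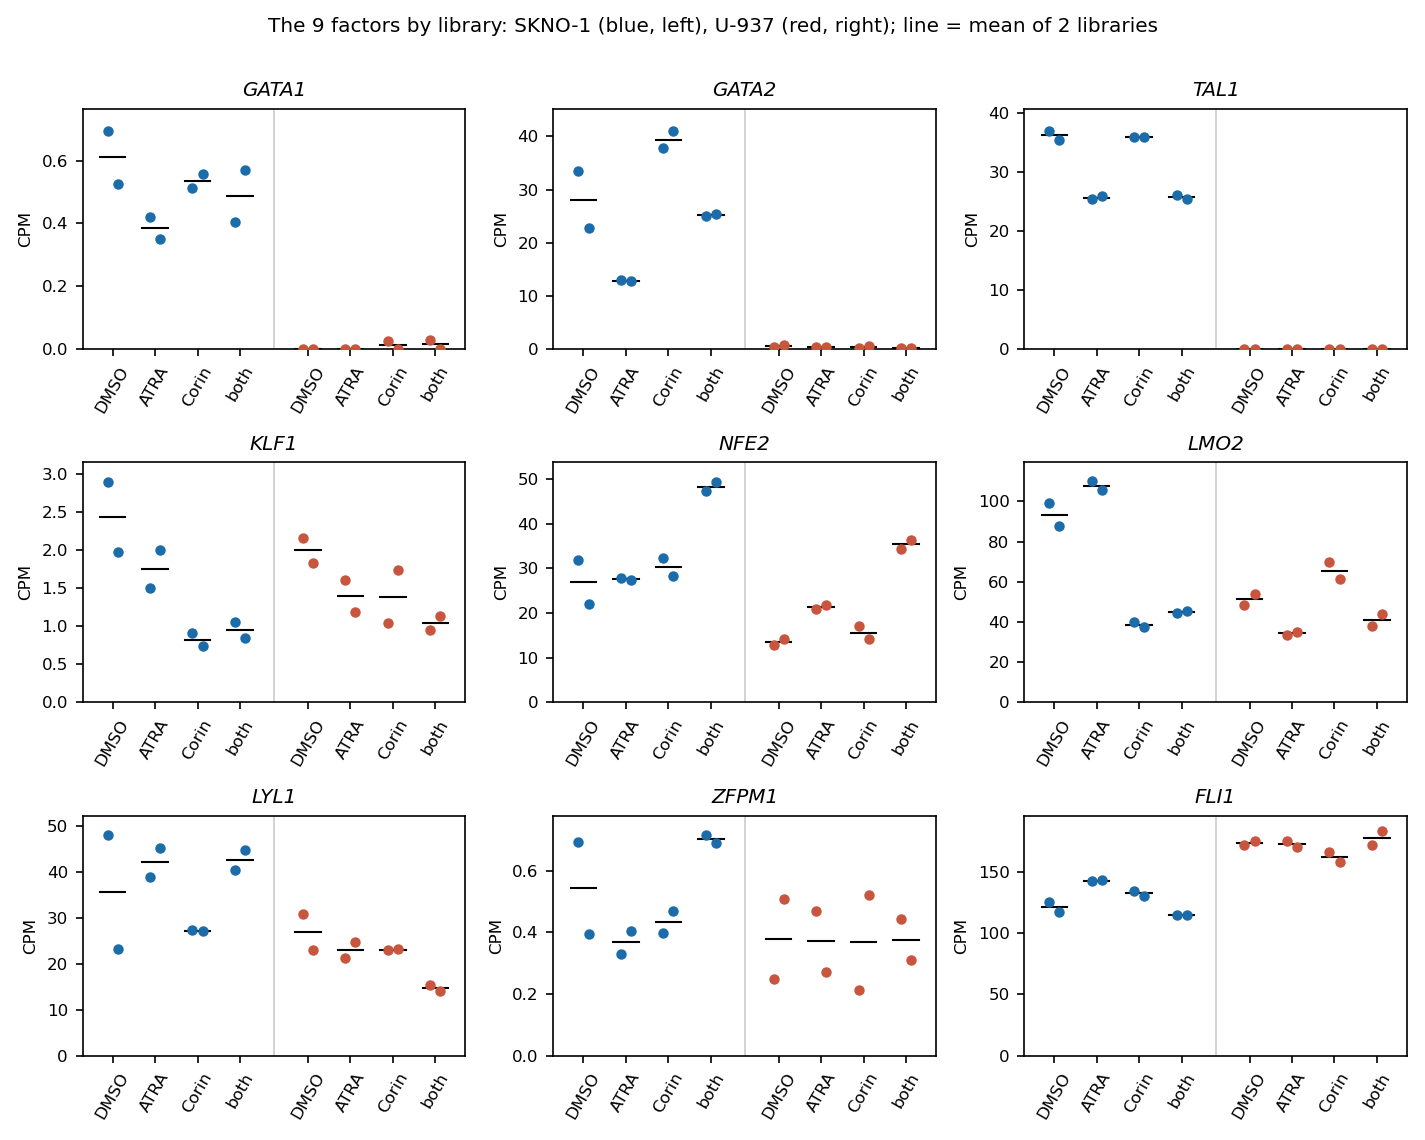
CPM on TMM-scaled totals (vertical axis, a separate linear scale from 0 in each panel) of the 9 factors in each library, SKNO-1 in blue and U-937 in red, with the mean of the 2 libraries as a line. TAL1 in SKNO-1 forms a level near 36 without ATRA and one near 26 with it, and LMO2 with Corin sits low in SKNO-1 and high in U-937.

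LMO2 (chromosome 11, 33858576-33892076, minus strand), the bridging protein, gave the clearest contrast between the lines. In SKNO-1 its CPM was 99.2 and 87.7 with DMSO, 110.0 and 105 with ATRA, 40.2 and 37.3 with Corin, and 44.4 and 45.3 with both. All 4 libraries with Corin lay below 46 CPM and all 4 without it above 87. LMO2 fell 2.41-fold with Corin (log2 -1.27, SE 0.08, adjusted p = 2.72e-05), 2.08-fold with both agents (-1.06, SE 0.08, adjusted p = 3.91e-05) and 2.40-fold from ATRA alone to both (-1.26, SE 0.08, adjusted p = 2.03e-05). These falls passed under every setting tried. ATRA alone gave a log2 difference of 0.20 (SE 0.08, adjusted p = 0.207), or 0.25 without DMSO replicate 1. The departure from additivity was 0.01 (95% interval -0.25 to 0.26). The step from Corin to both (0.21, SE 0.08, adjusted p = 0.122) was 0.22 without DMSO replicate 1 or 2. It passed with the 4 libraries alone (0.22, adjusted p = 0.00247).

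In U-937 the directions differed. Its CPM was 48.5 and 53.9 with DMSO, 33.4 and 35.1 with ATRA, 69.7 and 61.5 with Corin, and 38.2 and 43.8 with both. In CPM the Corin libraries were the highest 2 and the ATRA libraries the lowest 2 of the 8. The Corin libraries were also highest in the authors' TPM. There the libraries with both agents (18.67 and 19.01) lay between the ATRA libraries (18.01 and 19.11). The DMSO libraries stood at 30.02 and 34.33 TPM, so the fall with both agents was larger in TPM than in CPM. For the median gene, however, TPM per CPM was 0.443 and 0.455 with DMSO and 0.344 and 0.311 with both agents. That shift of scale goes the same way, and its part in the larger fall was not tested. LMO2 fell 1.49-fold with ATRA (log2 -0.58, SE 0.11, adjusted p = 0.000129), rose 1.28-fold with Corin (0.36, SE 0.11, adjusted p = 0.0268) and fell 1.25-fold with both (-0.32, SE 0.11, adjusted p = 0.0118). The rise with Corin did not pass with the GC trend removed (0.26, adjusted p = 0.0865), without DMSO replicate 1 (0.28, adjusted p = 0.240) or 2 (0.43, adjusted p = 0.0566), or without Corin replicate 1 (0.26, adjusted p = 0.221). The fall with both was lost without DMSO replicate 2 (-0.25, adjusted p = 0.121) or the first library with both agents (-0.22, adjusted p = 0.139). The interaction test of all 16 libraries asked whether each effect differed between the lines. It called 2 of the 9 factors for ATRA (19.4% of all genes), 1 for Corin (12.8%) and 3 for both agents (40.6%), and LMO2 was called each time. Leaving out 1 library gave 1 to 2, 1 to 3 and 1 to 3 factors. Its Corin effect was higher in U-937 than in SKNO-1 by 1.63 (SE 0.14, adjusted p = 1.84e-07), its ATRA effect was lower by a log2 difference of -0.74 (SE 0.14, adjusted p = 0.000601), and its effect of both agents was higher by 0.78 (SE 0.14, adjusted p = 0.000139). The 3 interactions share the DMSO libraries of each line.

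LYL1 (chromosome 19, 13099033-13103161, minus strand), the relative of TAL1, was the only one of the pair with more than a few reads in U-937. There its CPM was 30.8 and 23.1 with DMSO, 21.2 and 24.9 with ATRA, 23.0 and 23.2 with Corin, and 15.3 and 14.2 with both. The libraries with both agents were the lowest 2 of the 8, and the other 3 groups overlapped. LYL1 fell 1.83-fold with both agents (log2 -0.87, SE 0.13, adjusted p = 4.45e-06), and both agents were also below ATRA alone (-0.64, SE 0.13, adjusted p = 0.000329) and Corin alone (-0.65, SE 0.13, adjusted p = 0.000211). In SKNO-1 the CPM was 48.2 and 23.4 with DMSO, 39.0 and 45.4 with ATRA, 27.5 and 27.1 with Corin, and 40.6 and 44.9 with both.

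The 2 SKNO-1 DMSO libraries of LYL1 lay below and above all 6 treated libraries, and no comparison passed. Without DMSO replicate 1 the log2 difference was 0.81 with ATRA and 0.86 with both agents, and without DMSO replicate 2 it was -0.84 with Corin. With all libraries and no filter on low counts, Corin passed (-0.39, adjusted p = 0.00222). The direction of the LYL1 difference from DMSO in SKNO-1 changed with the DMSO library kept. The step from Corin to both gave 0.65 (SE 0.28, adjusted p = 0.162), and 0.66 without DMSO replicate 1 or 2. It passed with the 4 libraries alone (0.655, adjusted p = 8.45e-09) and with no filter on low counts (0.636, adjusted p = 3.49e-07). The effect of both agents was lower in U-937 than in SKNO-1 (log2 difference -1.09, SE 0.36, adjusted p = 0.0324). The interaction of ATRA was -1.09 without SKNO-1 DMSO replicate 1, and that of Corin was 0.62 without SKNO-1 DMSO replicate 2. The interaction of both agents was lost with no filter on low counts (-1.09, adjusted p = 0.0849) and when any 1 of 11 of the 16 libraries was left out (adjusted p = 0.0517 to 0.145): any treated library of SKNO-1, any U-937 library with Corin or both agents, or U-937 DMSO replicate 1.

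KLF1 (chromosome 19, 12884422-12887201, minus strand), the activator of red cell genes, was low in both lines and fell where Corin was present in SKNO-1. Its CPM there was 2.89 and 1.97 with DMSO, 1.5 and 2.00 with ATRA, 0.912 and 0.734 with Corin, and 1.06 and 0.840 with both. The 4 libraries with Corin held the 4 lowest values, and the DMSO and ATRA libraries overlapped. KLF1 fell 2.94-fold with Corin (log2 -1.56, SE 0.29, adjusted p = 0.00418), 2.55-fold with both (-1.35, SE 0.29, adjusted p = 0.00568) and 1.85-fold from ATRA to both (-0.88, SE 0.29, adjusted p = 0.0393). The groups held 175, 124, 57 and 62 counts over their 2 libraries in the order DMSO, ATRA, Corin and both. The Corin call held under every setting tried, the call with both agents was lost without the second library of that group (-1.20, adjusted p = 0.0515), and the step from ATRA to both was lost with DESeq2 (-0.89, adjusted p = 0.0925) and without any 1 of the 6 treated libraries (adjusted p = 0.0588 to 0.224).

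In U-937 KLF1 was at 2.16 and 1.83 CPM with DMSO, 1.60 and 1.18 with ATRA, 1.04 and 1.73 with Corin, and 0.947 and 1.13 with both. Every treated library lay below both DMSO libraries, and the test passed for both agents alone (log2 -0.94, SE 0.33, adjusted p = 0.0139). That call was lost with DESeq2 (-0.95, adjusted p = 0.0568), without DMSO replicate 1 (-0.83, adjusted p = 0.0849) and without the first library with both agents (-0.81, adjusted p = 0.0788), and in the authors' deposited table the adjusted p was 0.108. The Corin effect on KLF1 was not called different between the lines (log2 difference 1.01, 95% interval 0.11 to 1.91, adjusted p = 0.139). That difference was 1.28 without SKNO-1 DMSO replicate 2.

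NFE2 (chromosome 12, 54292111-54301015, minus strand), a subunit of the NF-E2 factor, was the one member that both lines raised with both agents. In SKNO-1 its CPM was 31.8 and 22.1 with DMSO, 27.8 and 27.4 with ATRA, 32.2 and 28.3 with Corin, and 47.2 and 49.4 with both. The libraries with both agents stood above the other 6, and the DMSO libraries overlapped those of each single agent. NFE2 rose 1.80-fold with both agents (log2 0.84, SE 0.16, adjusted p = 0.00306), and both agents were above ATRA alone (0.81, SE 0.16, adjusted p = 0.00396) and above Corin alone (0.68, SE 0.16, adjusted p = 0.0330). With ATRA alone the log2 difference from DMSO was 0.04 (95% interval -0.32 to 0.40), and it was 0.28 (adjusted p = 0.0147) without DMSO replicate 1 and -0.24 (adjusted p = 0.0297) without DMSO replicate 2. With Corin alone it was 0.17 (-0.19 to 0.53), and it passed with the GC trend removed (0.27, adjusted p = 0.0226) and without DMSO replicate 1 (0.43, adjusted p = 0.000182). The step from Corin to both was lost without any 1 of the 6 treated libraries (adjusted p = 0.0727 to 0.214).

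In U-937 NFE2 rose by steps. Its CPM was 12.8 and 14.2 with DMSO, 17.0 and 14.2 with Corin, 21.0 and 21.7 with ATRA, and 34.4 and 36.4 with both. The ATRA libraries lay above the DMSO and Corin libraries and below those with both agents. NFE2 rose 1.58-fold with ATRA (log2 0.66, SE 0.12, adjusted p = 0.000111) and 2.62-fold with both (1.39, SE 0.12, adjusted p = 4.71e-10), and both agents were above ATRA alone (0.73, SE 0.12, adjusted p = 1.44e-05) and Corin alone (1.18, SE 0.12, adjusted p = 7.92e-09). Corin alone did not pass (0.21, 95% interval -0.04 to 0.47).

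Whether the effect of both agents exceeded the sum of the single effects was tested in each line. In U-937 NFE2 was the 1 factor of 7 called, against 23.4% of all genes, with a departure of 0.52 on the log2 scale (SE 0.17, adjusted p = 0.0279). It was lost without either ATRA library (0.49, adjusted p = 0.105; 0.55, adjusted p = 0.0659), without the second library with both agents (0.48, adjusted p = 0.0693), without Corin replicate 2 (0.39, adjusted p = 0.128) and without DMSO replicate 2 (0.44, adjusted p = 0.130). LYL1 had a departure of -0.42 (SE 0.19, adjusted p = 0.113), or -0.65 without DMSO replicate 1. In SKNO-1 edgeR called 0 of 9 factors, against 0.463% of genes, a share that became 6.32% without DMSO replicate 1, 30.9% without replicate 2 and 0.0384% to 0.109% without a treated library. NFE2 (0.64, SE 0.22, adjusted p = 0.283), ZFPM1 (1.24, SE 0.53, adjusted p = 0.345) and FLI1 (-0.44, SE 0.08, adjusted p = 0.0738) were the 3 with an unadjusted p under 0.05, and DESeq2 called 1, FLI1 (-0.45, adjusted p = 0.00384). The NFE2 departure was 0.41 without SKNO-1 DMSO replicate 1 and 0.93 without replicate 2, and that of FLI1 was -0.44 and -0.35. Without replicate 2 those of GATA2 and LYL1 were 0.79 and 0.89.

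The lines differed in the response of NFE2 as well. The ATRA effect was higher in U-937 by 0.66 on the log2 scale (SE 0.19, adjusted p = 0.0195) and the effect of both agents by 0.59 (SE 0.19, adjusted p = 0.0179). Without SKNO-1 DMSO replicate 1 these were 0.33 (adjusted p = 0.154) and 0.31 (adjusted p = 0.125). The ATRA interaction of NFE2 was also lost without either library of SKNO-1 ATRA, SKNO-1 with both agents, U-937 ATRA or U-937 DMSO (0.53 to 0.68, adjusted p = 0.0511 to 0.142). The interaction for both agents was also lost with library totals in place of TMM scaling (0.42, adjusted p = 0.0634), and without the first SKNO-1 library with both agents, the second such U-937 library or U-937 DMSO replicate 1 (0.51 to 0.55, adjusted p = 0.0678 to 0.0943).

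FLI1 (chromosome 11, 128686535-128813267, plus strand), the ETS factor of megakaryocytes, varied over a narrow range. In SKNO-1 its CPM was 125 and 117 with DMSO, 142 and 143 with ATRA, 135 and 130.1 with Corin, and 115 in both libraries with both agents. The ATRA libraries were the highest 2 and those with both agents the lowest 2. Against DMSO ATRA gave a log2 difference of 0.24 (SE 0.06, adjusted p = 0.0504), which passed with the GC trend removed (0.24, adjusted p = 0.0195). That difference was 0.24 without DMSO replicate 1 and 0.15 without replicate 2. Both agents were 1.24-fold below ATRA alone (-0.31, SE 0.06, adjusted p = 0.00306), in a comparison with 5 of 9 factors called against 44.8% of genes. In the step from Corin to both, with 3 of 9 called against 10.4% of genes, FLI1 did not pass (-0.21, SE 0.06, adjusted p = 0.0589). Its difference was -0.20 without DMSO replicate 1 or 2. It passed with the 4 libraries alone (-0.198, adjusted p = 0.000246), with DESeq2 (-0.244, adjusted p = 0.0126) and with library totals (-0.257, adjusted p = 0.0463). The log2 difference of Corin alone from DMSO was 0.15 without DMSO replicate 1, and that of both agents was -0.13 without replicate 2. In U-937 its CPM lay between 158 and 183 in all 8 libraries and no comparison passed; 2 of 7 factors were called from ATRA to both (47.4% of genes) and 3 of 7 from Corin to both (60.5%).

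The level of FLI1 in U-937 depended on the unit. In the authors' TPM it was 59.8 and 60.8 with DMSO, 53.7 and 48.3 with ATRA, 55.0 and 55.5 with Corin, and 46.6 and 45.0 with both, so the libraries with both agents were the lowest 2 in TPM while they overlapped the DMSO libraries in CPM. With the GC trend removed from the counts, FLI1 was instead higher with both agents (log2 0.20, adjusted p = 0.00991). The TPM of the median gene per CPM ran from 0.302 to 0.474 over the 16 libraries. In U-937 it was 0.443 and 0.455 with DMSO and 0.344 and 0.311 with both agents, lower as FLI1 was in TPM. The scales are thus not interchangeable. The part of length and GC content in the difference between the scales was not tested.

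More partners and regulators of the factors fell than rose in U-937 with ATRA, alone or with Corin. Their list held 24 genes, such as LDB1, the E proteins, RUNX1, the MAF proteins and the CoREST components, of which 23 were tested in each line. In SKNO-1 0 rose and 3 fell with ATRA, 9 rose and 1 fell with Corin, and 4 rose and 6 fell with both agents. Without SKNO-1 DMSO replicate 1 the ATRA count of 3 became 11 and the Corin count of 10 became 17, and without replicate 2 they became 10 and 17. With the GC trend removed, 3 rose and 4 fell with ATRA and 9 rose and 4 fell with both agents, and with library totals 5 rose and 5 fell with both, so the balance with both agents depended on the scaling. In U-937 6 rose and 10 fell with ATRA, 0 rose and 1 fell with Corin, and 7 rose and 14 fell with both. The median log2 change of the list was -0.07, 0.12 and 0.06 in SKNO-1 and -0.17, 0.01 and -0.29 in U-937, beside medians of 0.01, 0.00, 0.05, 0.02, 0 and 0.03 over all genes in the same order. Calls over all genes made up 6.76%, 37.9% and 46.7% in SKNO-1 and 41.8%, 12.9% and 65.3% in U-937.

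Among these partners GFI1B, the repressor of erythroid and megakaryocytic cells that recruits CoREST, rose in SKNO-1 from near 0. It had 4 counts over both DMSO libraries and 6 with ATRA, and stood at 4.06 ± 0.301 CPM with Corin (n = 2) (adjusted p = 7.60e-05) and 8.95 ± 0.581 with both agents (adjusted p = 1.85e-05), against 0.0578 ± 0.0818 with DMSO. The ETS factor ERG rose from 75.1 ± 1.61 CPM to 177 ± 4.81 with Corin (log2 1.24, SE 0.06, adjusted p = 6.60e-06) and to 128 ± 1.34 with both. In U-937 ERG fell from 5.99 ± 0.0287 CPM to 2.37 ± 0.820 with ATRA and 0.696 ± 0.0615 with both (-3.09, SE 0.27, adjusted p = 6.45e-10). MAFF, a small MAF protein that pairs with NFE2, rose in U-937 from 2.60 ± 0.539 CPM to 8.31 ± 0.254 with ATRA and 13.5 ± 1.11 with both (2.38, SE 0.19, adjusted p = 1.07e-10). The E protein gene TCF3, whose product pairs with TAL1 and LYL1, fell in U-937 with both agents from 45.0 ± 4.73 to 15.2 ± 1.42 CPM (-1.57, SE 0.11, adjusted p = 2.09e-11), while LDB1 rose from 51.8 ± 4.64 to 89.2 ± 4.69 (0.78, SE 0.10, adjusted p = 3.02e-07). The LSD1 gene KDM1A fell in U-937 with ATRA, from 258 ± 12.8 to 159 ± 4.54 CPM (-0.69, SE 0.10, adjusted p = 4.19e-06).

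Family relatives (14 genes) gave 1 higher and 1 lower of 8 tested in SKNO-1 with ATRA, 3 and 1 with Corin, and 3 and 3 with both agents. The ATRA count became 5 without either SKNO-1 DMSO library. In U-937 they gave 3 higher and 3 lower of 9 tested with ATRA, 4 and 0 with Corin, and 4 and 3 with both. The shares of all genes called were 6.76%, 37.9% and 46.7% in SKNO-1 and 41.8%, 12.9% and 65.3% in U-937, in the same order. KLF6 fell in SKNO-1 with ATRA, from 80.2 ± 1.64 to 46.3 ± 0.728 CPM (log2 -0.79, SE 0.06, adjusted p = 0.000157), and rose in U-937 from 37.8 ± 4.22 to 56.0 ± 2.50 (0.57, SE 0.11, adjusted p = 0.000304). ETS1, a relative of FLI1, rose in U-937 with both agents from 88.1 ± 2.97 to 168 ± 17.8 CPM (0.93, SE 0.10, adjusted p = 1.40e-08), and it had 1 count over both SKNO-1 DMSO libraries. NFE2L3, a relative of NFE2, fell in U-937 from 28.3 ± 1.42 to 5.80 ± 0.791 CPM with both agents (-2.29, SE 0.14, adjusted p = 7.56e-13), where NFE2 itself rose.

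Erythroid genes, the targets by which GATA1 and KLF1 are best known, were largely silent. Of 28 such genes 13 to 17 had 0 counts in each of the 8 groups, HBA2, HBB, HBG1, HBG2 and ALAS2 in all of them, and 8 or 9 were tested. In SKNO-1 none of 8 rose or fell with ATRA, while 3 rose and 2 fell with Corin and with both agents, with list medians of 0.03, -0.01 and 0.01. Shares of all genes called with ATRA, Corin and both were 6.76%, 37.9% and 46.7% in SKNO-1 and 41.8%, 12.9% and 65.3% in U-937. The ATRA count of 0 became 4 without SKNO-1 DMSO replicate 1 and 2 without replicate 2. The erythropoietin receptor EPOR rose with Corin from 3.59 ± 1.39 to 6.19 ± 0.0113 CPM (log2 0.79, SE 0.25, adjusted p = 0.0390). The transferrin receptor TFRC, which all dividing cells use, fell from 2444 ± 105 to 1054 ± 16.8 CPM (-1.21, SE 0.05, adjusted p = 5.02e-06). In U-937 2 rose and 5 fell of 9 with ATRA, 0 and 3 with Corin, and 2 and 4 with both, with KEL, a blood group protein, falling from 3.98 ± 0.396 to 0.259 ± 0.0233 CPM with ATRA (-3.92, SE 0.34, adjusted p = 1.74e-09). Of the 7 heme synthesis enzymes, 0 rose and 2 fell in SKNO-1 with Corin, and 0 were called with either other treatment. With library totals 0 were called with Corin, and with the GC trend removed 2 rose and 2 fell with Corin and with both agents. With Corin 2 rose and 2 fell without DMSO replicate 1, and 0 rose and 3 fell without replicate 2. ATRA gave 3 calls without DMSO replicate 1, and both agents gave 2 calls without replicate 1 and 4 without replicate 2. In U-937 1 rose and 5 fell with both agents.

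Megakaryocyte genes were detected in part, and more of those tested rose than fell with both agents in each line. Of 28 genes 15 were tested in SKNO-1, of which 4 rose and 2 fell with ATRA, 7 rose and 1 fell with Corin, and 9 rose and 1 fell with both agents, with medians of 0.12, 0.62 and 1.21. Without DMSO replicate 2, 6 of the 8 Corin calls and 7 of the 10 calls with both agents remained. In U-937 11 were tested, of which 5 rose and 3 fell with ATRA, 3 and 0 with Corin, and 6 and 1 with both, with medians of 0.89, 0.22 and 1.47. Over all genes 6.76%, 37.9% and 46.7% were called in SKNO-1 and 41.8%, 12.9% and 65.3% in U-937. The share of this list called in U-937 with both agents was thus near the background. Medians over all genes were 0.01, 0.00 and 0.05 in SKNO-1 and 0.02, 0 and 0.03 in U-937. The platelet genes GP9 and PF4 had 0 counts in every group, and GP1BB in most, so these defining genes of the lineage were at or near 0.

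P-selectin (SELP), a platelet granule protein, had 3 counts over both SKNO-1 DMSO libraries and stood at 3.67 ± 0.0296 CPM with ATRA, 2.76 ± 0.452 with Corin and 46.8 ± 1.75 with both. Thrombospondin (THBS1) rose in SKNO-1 from 2.35 ± 0.136 to 113 ± 4.67 CPM with ATRA (log2 5.59, SE 0.09, adjusted p = 1.08e-07) and stood at 90.9 ± 3.04 with both, and in U-937 it rose from 1.18 ± 0.140 to 25.3 ± 0.888 with both (4.41, SE 0.19, adjusted p = 1.14e-15). Integrin alpha-IIb (ITGA2B), the platelet fibrinogen receptor, took the same direction as GATA2 with each single agent in SKNO-1. Its CPM was 9.69 ± 3.64 with DMSO, 4.33 ± 0.183 with ATRA (-1.16, SE 0.23, adjusted p = 0.0207), 35.8 ± 0.345 with Corin (1.89, SE 0.21, adjusted p = 0.000391) and 32.8 ± 0.793 with both. RAB27B fell and rose likewise, from 1.33 ± 0.205 to 0.374 ± 0.108 CPM with ATRA (-1.83, SE 0.27, adjusted p = 0.00496) and to 8.19 ± 0.505 with Corin (2.62, SE 0.20, adjusted p = 7.11e-05).

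Mast cell and basophil genes, which GATA2 is known to control, were detected chiefly in SKNO-1, where 6 of 9 were tested. With ATRA 1 rose and 3 fell, with Corin 4 rose and 1 fell, and with both agents 2 rose and 2 fell, with medians of -1.5, 1.61 and 0.13. All genes tested had 6.76%, 37.9% and 46.7% called and medians of 0.01, 0.00 and 0.05. Carboxypeptidase A3 (CPA3) was at 9.64 ± 0.510 CPM with DMSO, 1.38 ± 0.0390 with ATRA (log2 -2.80, SE 0.14, adjusted p = 2.88e-05), 25.0 ± 1.16 with Corin (1.38, SE 0.12, adjusted p = 0.000102) and 3.50 ± 0.360 with both (-1.46, SE 0.13, adjusted p = 8.02e-05). Histidine decarboxylase (HDC) went from 0.718 ± 0.0476 CPM to 0.141 ± 0.0298 with ATRA (-2.31, SE 0.34, adjusted p = 0.00470) and 2.59 ± 0.169 with Corin (1.85, SE 0.23, adjusted p = 0.000665). The IgE receptor subunit FCER1A held 4 counts with ATRA, against 59 with DMSO, and 626 with Corin, against 255 with both. The stem cell factor receptor KIT moved the other way, from 439 ± 28.4 CPM to 628 ± 3.58 with ATRA (0.52, SE 0.06, adjusted p = 0.00174) and 289.7 ± 10.9 with Corin (-0.60, SE 0.06, adjusted p = 0.000245). In U-937 3 of the 9 genes were tested, and the tryptase TPSAB1, which shares reads with a near-identical paralog, fell from 27.1 ± 3.94 to 11.2 ± 1.21 CPM with ATRA (-1.28, SE 0.13, adjusted p = 2.64e-08). No called gene of any list changed sign with library totals, with the GC trend removed or without either SKNO-1 DMSO library.

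**Figure D4:**
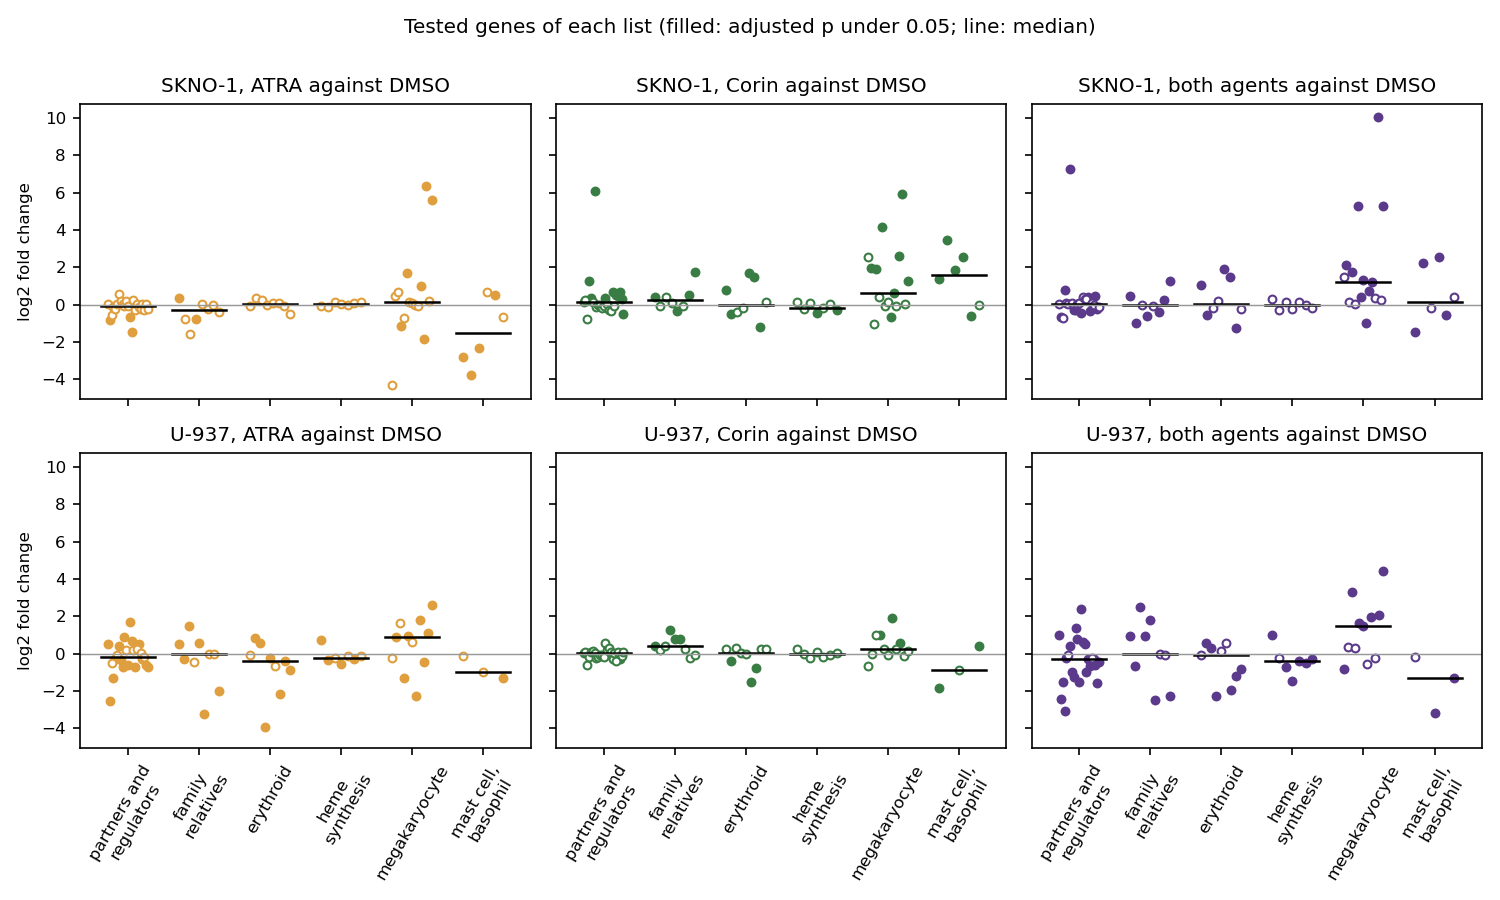
Log2 fold change against DMSO (vertical axis) of every tested gene in 6 lists, by line (rows) and agent (columns), filled where the adjusted p was under 0.05, with the list median as a line. The mast cell and basophil median lies at -1.5 with ATRA and 1.61 with Corin in SKNO-1, and the megakaryocyte median lies above 0 in all 6 panels.

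The genes whose pattern was most like each member were ranked by Pearson correlation of log2 CPM over the 16 libraries, after the mean of each line was subtracted, among 10897 genes. GATA1 and TAL1, near 0 in U-937, were not ranked. The points share libraries and depth, and the values are a description. The CPM were not corrected for GC content, with which the difference between the SKNO-1 DMSO libraries went at r = -0.796. Its part in these ranks was not tested. For LMO2 they were ESYT2 (r = 0.978), FDXACB1 (0.949) and UTP25 (0.942). NFE2 was most like RHBDF2 and FLOT1 (both 0.972) and BRI3 (0.964), and LYL1 most like PLEKHJ1 (0.956), CPSF1 (0.953) and GALK1 (0.951). KLF1 was most like SCMH1 (0.907), CRAMP1 (0.904) and TBC1D2B (0.896), GATA2 like RAB38 (0.870), GALNT10 (0.861) and CAMK1D (0.847), and FLI1 like COX15 (0.835), TLR2 (0.799) and ATG10 (0.762). ZFPM1, at low counts, reached at most 0.688 (ACCS). No member was among another's nearest genes, but GATA1, KLF1 and ZFPM1 had a mean under 5 CPM and so could not be. Between the 7 ranked members r ran from -0.578 (KLF1 and NFE2) to 0.707 (KLF1 and LMO2).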

How the data were processed

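RNA was extracted with RNeasy columns and DNase, per the labels' protocols, and libraries were made with a TruSeq stranded total RNA kit and sequenced on a NovaSeq. The submitters' processing notes name Trimmomatic, STAR, RSEM, deepTools and DESeq2 and the build hg38; versions, the strand setting and the annotation release are not given in the sources used here. The authors deposited RSEM expected counts and TPM per gene and library, and tables of their own comparisons with log2 fold changes and adjusted p-values. RSEM shares a read that fits several genes among them by estimate. In the table of all libraries, 20.4% of positive values were not whole, and rounding changed no library total by more than 42.03 counts.

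Rounded counts were tested with edgeR 4.0.16 (quasi-likelihood, robust, TMM scaling, filterByExpr) in R 4.3.3, per line over its 8 libraries (4 residual degrees of freedom) and over all 16 for comparisons between lines, with p-values adjusted by Benjamini-Hochberg over all genes tested and calls at 0.05. Intervals are 95%. Those of log2 differences use the t distribution with the degrees of freedom of each test, and those of count ratios cover counting error only. With 2 libraries against 2, no permutation test of a single gene can reach 0.05. CPM uses TMM-scaled totals. The tests were tried on simulated counts first. Positions and GC content come from GENCODE 44, which held 60306 of the 60603 genes. Figures were drawn with matplotlib 3.10.9.

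The members and the gene lists were chosen with earlier results of these data known. All 9 members are named. From each other list, named genes were taken from the up to 4 in each direction with the largest change among those called in a comparison at a mean of at least 1 CPM; genes named for a count of 0 or as markers stand outside that rule. Genes most like a member needed a mean of 5 CPM (prior count 2). Alternatives were DESeq2 1.42.0, library totals, no filter, the 4 libraries compared, a replicate block, removal of the GC trend, and leaving out each library. The counts of list genes under other scalings and without a SKNO-1 DMSO library were added after seeing the data. Some list genes are not reported here.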

Additional observations from a re-analysis of the deposited data

Results flagged for a closer look

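The interaction test found 6 effects on 3 of the factors that differed between U-937 and SKNO-1. For LMO2 the effect of ATRA was lower in U-937 (log2 difference -0.74, SE 0.14, adjusted p = 0.000601), and the effects of Corin (1.63, SE 0.14, adjusted p = 1.84e-07) and of both agents (0.78, SE 0.14, adjusted p = 0.000139) were higher. For NFE2 the effects of ATRA (0.66, SE 0.19, adjusted p = 0.0195) and of both agents (0.59, SE 0.19, adjusted p = 0.0179) were higher in U-937. For LYL1 the effect of both agents was lower in U-937 (-1.09, SE 0.36, adjusted p = 0.0324). The 3 for LMO2 kept their call under every setting tried, and those for NFE2 and LYL1 did not.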

How the results depend on the processing

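Of the comparisons of single factors, 1236 were called or not called as before when 1 library was left out (64 of them, called in neither fit, changed sign), 71 lost the call, 36 gained it and 1 was called with the opposite sign. Under the other settings 828 were unchanged in call (47 with a change of sign), 12 lost it, 39 gained it and 0 were called with the opposite sign. The opposite sign was NFE2 with ATRA in SKNO-1, from 0.04 to -0.24 without DMSO replicate 2, in a range of -0.24 to 0.28 over the libraries left out.

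The number of factors called moved by over 1.5 times, or from or to 0, as follows. With the 4 libraries alone, ATRA in SKNO-1 went from 2 to 0 and the step from Corin to both from 3 to 6. With the GC trend removed, alone or with the replicate block, Corin went from 3 to 5 in SKNO-1 and from 1 to 0 in U-937, and the U-937 step from ATRA to both from 2 to 4. GC removal also took additivity in U-937 from 1 to 2, and the block with GC removal took the Corin interaction from 1 to 2. DESeq2 called 1 and no filter 2 for additivity in SKNO-1 (0 with edgeR), and DESeq2 called 3 in place of 5 for both agents in U-937.

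Leaving out 1 library gave 0 to 6 for ATRA, 2 to 5 for Corin, 3 to 6 for both, 4 to 5 from ATRA to both, 0 to 6 from Corin to both and 0 to 4 for additivity in SKNO-1. In U-937 these were 2 to 3, 0 to 1, 2 to 5, 2 to 3, 3 to 3 and 0 to 2. Between lines they were 6 to 7 with DMSO, 1 to 2 for ATRA, 1 to 3 for Corin and 1 to 3 for both.

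With the replicate number as a block, the counts were 2, 2, 4, 5, 2 and 0 in SKNO-1, 2, 1, 5, 2, 3 and 1 in U-937, and 6, 2, 1 and 4 between lines, in the same orders. Differences between replicates 2 and 1 correlated between groups at -0.488 to 0.236 in SKNO-1 and -0.447 to 0.418 in U-937. They were over 0.1 in 1 of 6 and 2 of 6 pairs of groups. The differences also went with GC content, at r = -0.796 in SKNO-1 DMSO and -0.578 in U-937 DMSO. These correlations therefore cannot decide whether the numbers pair the libraries.

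Over all genes, the 1181 calls for ATRA in SKNO-1 became 239 with 4 libraries and 2489 with the GC trend removed, and the 81 for additivity became 298 with DESeq2 and 586 with the GC trend removed. Leaving out 1 library gave 562 (ATRA replicate 2) to 5335 (DMSO replicate 1) for ATRA, 397 to 7126 for the step from Corin to both (1822 with all) and 7 to 5648 for additivity. The cause was not tested. GATA1, ZFPM1 and, in U-937, GATA2 and TAL1 had too few counts to show small changes.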
